A study of Mus musculus with 8 samples.

Results

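The liver makes most of the proteins that clot blood and most of the complement proteins, and this report follows the chromatin around 38 genes for them in fasted mouse liver. A region was taken where the nearest protein-coding gene, by distance to the gene's span and within 100 kb, was one of the 38. This gave 130 of the 49587 regions that the authors merged from 8 peak lists, and 46663 regions had any coding gene within that distance. For 8 of the 130 a further gene lay equally near, and 37 of the 38 genes had at least 1 region. C1ra, a protease of the first complement component, had none.

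The assay was ATAC-seq, which finds open chromatin by where a transposase can cut. The livers came from male C57BL/6 mice aged 9 weeks and fasted for 24 h. The 4 genotypes, with 2 libraries each, were WT, Cpt2 L-/- (loss of Cpt2 in the liver), Ppara -/- (loss of Ppara in the whole body) and Cpt2 L-/- ; Ppara -/- (double knockout). All 4 groups shared the strain and the fast, and the driver of the liver knockout is not given in the sources used here. Cpt2 lets mitochondria burn long-chain fatty acids, and Ppara is a nuclear receptor that fatty acids activate. WT and Cpt2 L-/- are called Ppara-intact, and the other two genotypes Ppara-null. The labels do not say whether the 2 libraries of a genotype came from separate mice, so p-values measure the spread between these libraries only, which may be technical.

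Clotting starts when tissue factor binds factor VII, or through contact factors on a surface, and both routes lead through factor X to thrombin, which turns fibrinogen into fibrin. Proteins C and S and plasmin hold clotting back or dissolve the clot. Complement is a cascade of plasma proteases that can be started, among other ways, by antibodies or by lectins that bind sugars on microbes. Its routes join at C3 and end in a pore built from C5 to C9. Hepatocytes are the main source of most of these proteins, while tissue factor is mainly made by other cells.

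The files hold peak calls per library and no read counts, so a region was either called or not called in a library. The lists held 28733 and 36141 peaks in WT, 39296 and 35908 in Cpt2 L-/-, 20340 and 18283 in Ppara -/-, and 22715 and 18132 in double knockout libraries. Because the Ppara-null lists are shorter, counts of separated regions are read against the same share over all regions, and calls were repeated in equal-number lists of the strongest 18132 peaks of each library. Peak names carry the number 441, 443, 446 or 4717 for Ppara-intact libraries and 6831 to 6834 for Ppara-null ones. What it marks is not given in the sources used here, and it cannot be told apart from Ppara status. All 6 hepatocyte marker genes had a called region in every library, and their 67 regions were called at 64.2% to 79.1% on the Ppara-intact and 47.8% to 53.7% on the Ppara-null side. Regions at 4 bile duct markers were called at 45.5% to 81.8% with Ppara intact and at 0% to 9.09% without it, with Krt19 and Krt7 without any region. At 5 sinusoidal endothelial markers the shares were 32.4% to 70.3% and 13.5% to 18.9%, at 5 stellate cell markers 25% to 62.5% and 0% to 12.5%, and at 5 Kupffer cell markers 0% to 50% and 0% to 25%. Des, Dcn, Adgre1 and Vsig4 had no region. Over all regions the shares were 56.9% to 77.7% and 35.5% to 44.5%. In equal-number lists the mean shares with Ppara intact and lost were 38.8% and 47.8% at hepatocyte markers, against 36.4% and 35.7% of all regions. They were 13.6% and 2.27% at bile duct and 11.5% and 14.9% at endothelial markers. At stellate cell markers they were 0% and 6.25%, and at Kupffer cell markers 0% and 0%. The bile duct, endothelial, stellate and Kupffer cell lists hold 11, 37, 8 and 4 regions. Their part in the results below was not tested.

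Promoters were examined first. Of the 130 member regions, 54 (41.5%) had either end of a gene, its start or the opposite one, no more than 1 kb away, against 26% of all regions. RefSeq promoter windows (GRCm38.p6, the assembly of mm10, 250 bases before to 50 after a start) matched 30 of the 38 genes with 31 windows. A peak overlapped 23 and 26 of the 31 in WT, 24 and 26 in Cpt2 L-/-, 19 and 15 in Ppara -/-, and 19 and 12 in double knockout libraries. The share was 74.2% to 83.9% in the Ppara-intact libraries, where 43.5% to 45.8% of the 21263 windows of all coding genes were called. In the Ppara-null libraries it was 38.7% to 61.3%, against 30.9% to 35.8%. Of the 31 windows, 8 (25.8%) were called in all 8 libraries, against 26.1% of all windows, and 5 (16.1%) in none, against 50.5%. The windows of C8b, F12, F2, F5, F7, Fga, Fgg and Proz were those called in every library. Only the window of F9 was called in each of the 4 Ppara-intact libraries but not with Ppara lost (1 of 31 or 3.23%, against 2.5% of all windows).

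**Figure D1:**
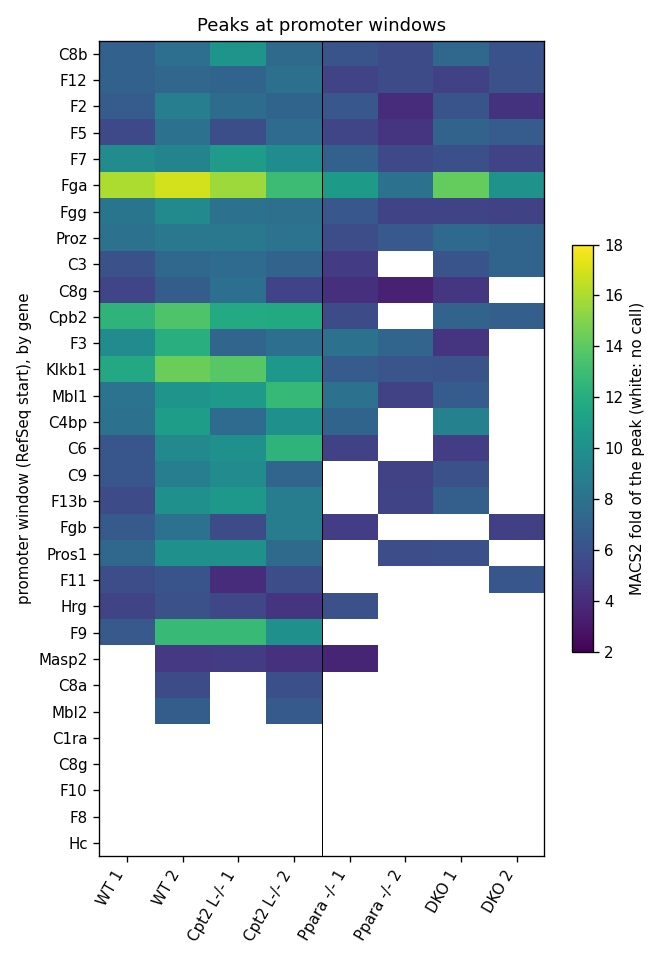
Fold of the peak over each of 31 promoter windows (rows) in each library (columns), on a linear colour scale; white marks no call, and the vertical line divides Ppara-intact from Ppara-null libraries. The window of Fga is coloured in every library, that of F9 only left of the line, and 5 windows are white throughout.

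The bases before the start are printed for 4 of these promoters. F9, which encodes factor IX of the contact and intrinsic route, was the window that followed Ppara status. Fga and Fgb encode the alpha and beta chains of fibrinogen, and Fga had the highest fold of the 31 windows in every library. C3 is the protein at which the complement routes join. Each sequence is written 5′ to 3′ on the strand of the gene, and capitals mark matches, wholly before the start, to the letters CAAAGTNCA (a site of the liver factor HNF4), GTTAAT (a core site of HNF1), TTGCNNAA (C/EBP) or AGGTCA (a core site of nuclear receptors such as PPAR).
F9 (chrX:59999214-59999463, plus strand): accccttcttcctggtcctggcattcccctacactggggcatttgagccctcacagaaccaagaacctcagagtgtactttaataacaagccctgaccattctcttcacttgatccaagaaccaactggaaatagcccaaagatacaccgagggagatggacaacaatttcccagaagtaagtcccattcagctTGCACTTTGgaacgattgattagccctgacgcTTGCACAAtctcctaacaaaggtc
Fga (chr3:83025903-83026152, plus strand): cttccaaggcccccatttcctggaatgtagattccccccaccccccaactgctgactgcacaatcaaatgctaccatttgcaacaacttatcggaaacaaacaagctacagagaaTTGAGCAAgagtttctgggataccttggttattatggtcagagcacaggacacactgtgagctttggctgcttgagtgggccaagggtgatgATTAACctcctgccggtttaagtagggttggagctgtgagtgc
Fgb (chr3:83049864-83050113, minus strand): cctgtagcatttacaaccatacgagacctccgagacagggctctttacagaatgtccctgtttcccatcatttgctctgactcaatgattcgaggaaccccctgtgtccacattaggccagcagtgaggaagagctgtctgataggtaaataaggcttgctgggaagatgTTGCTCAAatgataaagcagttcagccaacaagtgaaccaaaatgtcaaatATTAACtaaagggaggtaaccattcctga
C3 (chr17:57228137-57228386, minus strand): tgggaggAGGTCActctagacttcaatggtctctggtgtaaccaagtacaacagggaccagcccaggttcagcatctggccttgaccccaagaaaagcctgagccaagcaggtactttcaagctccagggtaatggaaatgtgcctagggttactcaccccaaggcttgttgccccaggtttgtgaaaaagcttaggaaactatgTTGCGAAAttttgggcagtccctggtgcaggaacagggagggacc

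In F9 the HNF4 match lay at -56 to -48 and the C/EBP match at -24 to -17, counted from the start at 0, and the peak summits lay at -108 to -38. This start, at 59999464, lies inside the annotated span of F9, which begins at 59999329, and so do both matches. A further AGGTCA lay at -5 to 0 across the start. In Fga the C/EBP match lay at -135 to -128 and the HNF1 core site at -43 to -38, with summits at -87 to 23. In Fgb these matches lay at -80 to -73 and at -29 to -24, with summits at -56 to 4. In C3 the C/EBP match lay at -45 to -38 and AGGTCA at -243 to -238, with summits at -197 to -75.

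Both strands of all windows were searched for these letters. TTGCNNAA was found in 10 of the 31 windows (32.3%), against 10.2% of all 21263, and GTTAAT in 10 (32.3%), against 6.25%. AGGTCA was found in 10 (32.3%), against 14.7%, and CAAAGTNCA in 1, that of F9 (3.23%), against 1.31%. AGGTCA repeated after 1 base of any kind, the direct repeat that PPAR binds, was in 0 of the 31 and in 0.047% of all windows. GTTAAT followed by 1 base of any kind and by its own reverse complement was in 0 of the 31, against 0.0047%, and TTGCGCAA, a form of TTGCNNAA, in 0, against 0.221%. TATAAA was found in 5 (16.1%), against 12.6%.

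By library, the 130 regions were called at 93 and 106 in WT, 106 and 101 in Cpt2 L-/-, 65 and 49 in Ppara -/-, and 78 and 64 in double knockout. Every Ppara-null library lay below every Ppara-intact one. The shares were 71.5% to 81.5% with Ppara intact and 37.7% to 60% without it, where all regions had 56.9% to 77.7% and 35.5% to 44.5%. With lists cut to equal number the member shares were 43.8% to 50% and 36.9% to 50%, so the sides overlapped, and all regions had 36.3% to 36.4% and 35.3% to 36%. Of the 130, 34 (26.2%) were called in all 8 libraries, against 22.7% of all regions and 45.5% of all those within 1 kb of a gene end.

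**Figure D2:**
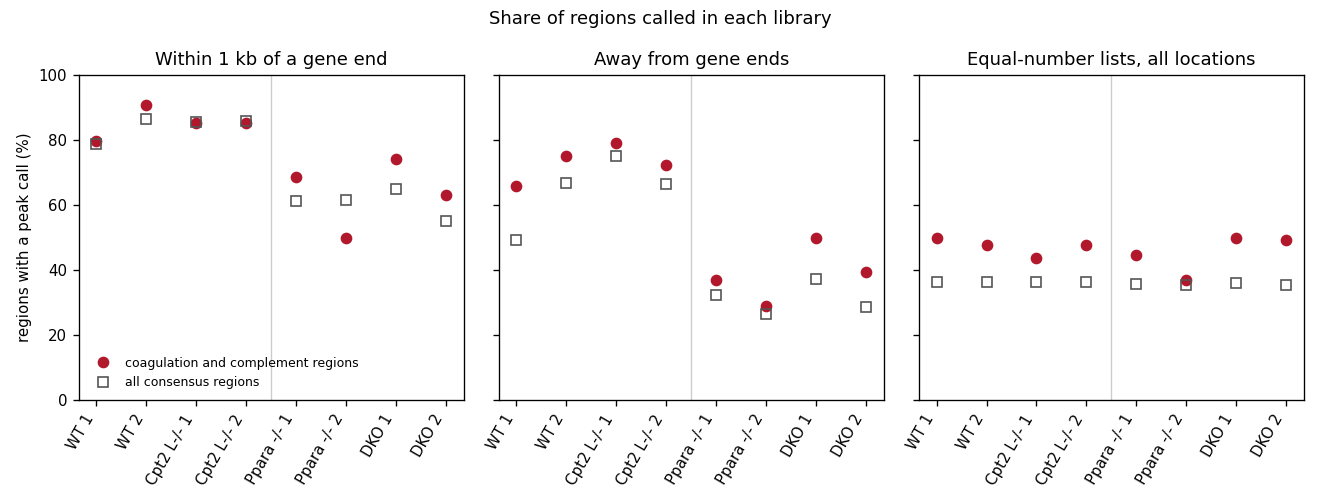
Percentage of regions called in each library, for regions within 1 kb of a gene end (left), for the others (middle), and for both together in equal-number lists (right); filled circles are the 130 coagulation and complement regions and open squares all consensus regions. At gene ends the second Ppara -/- library has 50% of the 54 member regions against 61.4% of all, whereas the other Ppara-null libraries have more member than all regions.

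The second Ppara -/- library stood apart. It called 27 of the 54 member regions at gene ends (50%), against 37 in the first Ppara -/- library and 40 and 34 in double knockouts. Its share over all gene-end regions was 61.4%, against 55.2% to 65% in the other Ppara-null libraries. Regions called in 7 libraries and missing in this one alone numbered 12 of the 130 (9.23%), against 3.2% of all regions, and 7 of them lay within 1 kb of a gene end. They belonged to F12, Cpb2, Hrg, Pros1, Plg, C4b, C3, Proc, with 2 each at Masp1 and C8a. The second double knockout library alone missed 4 (3.08%), against 2.77% of all, at F5, Mbl1, Proc and Klkb1.

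The strongest region within 1 kb of a gene end was called in all 8 libraries for 17 genes, namely F2, F3, F5, F7, F10, F11, F12, Fga, Fgg, Kng1, Pros1, Proz, C2, C8b, C8g, Cfb and Cfi. It was called in 7 libraries for Klkb1, Plg, Proc, Cpb2, C3, C4b, C8a, Masp1 and Mbl1, and in 6 for F13b, Fgb, C6, C9 and C4bp. It was called in 5 for Hrg and Hc, in 4 for F9, in 3 for F8 and in 2 for Mbl2. Masp2 had 4 regions, none of them near an end of its annotated span, and its promoter window, at a start inside the span, was called in 4 libraries. C2 and Cfb, which lie side by side, share the region counted for both. The regions counted for Masp1, C8g and F8 lay equally near Rtp4, Fbxw5 and Fundc2. That of Masp1 had a median percentile of 15.8 and was called in 2 equal-number lists. Each count above is of libraries with a peak at that 1 region, which may lie near either end of the gene span, not only its start. Another region near an end can have other calls, as at C4b, where a weaker one was called in all 8 libraries. Among the genes with a promoter window, F5, F11 and C8a were counted at the end away from the start. Their regions at the start were called in 8, 5 and 2 libraries. The heat map of all regions shows the calls with their folds.

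**Figure D3:**
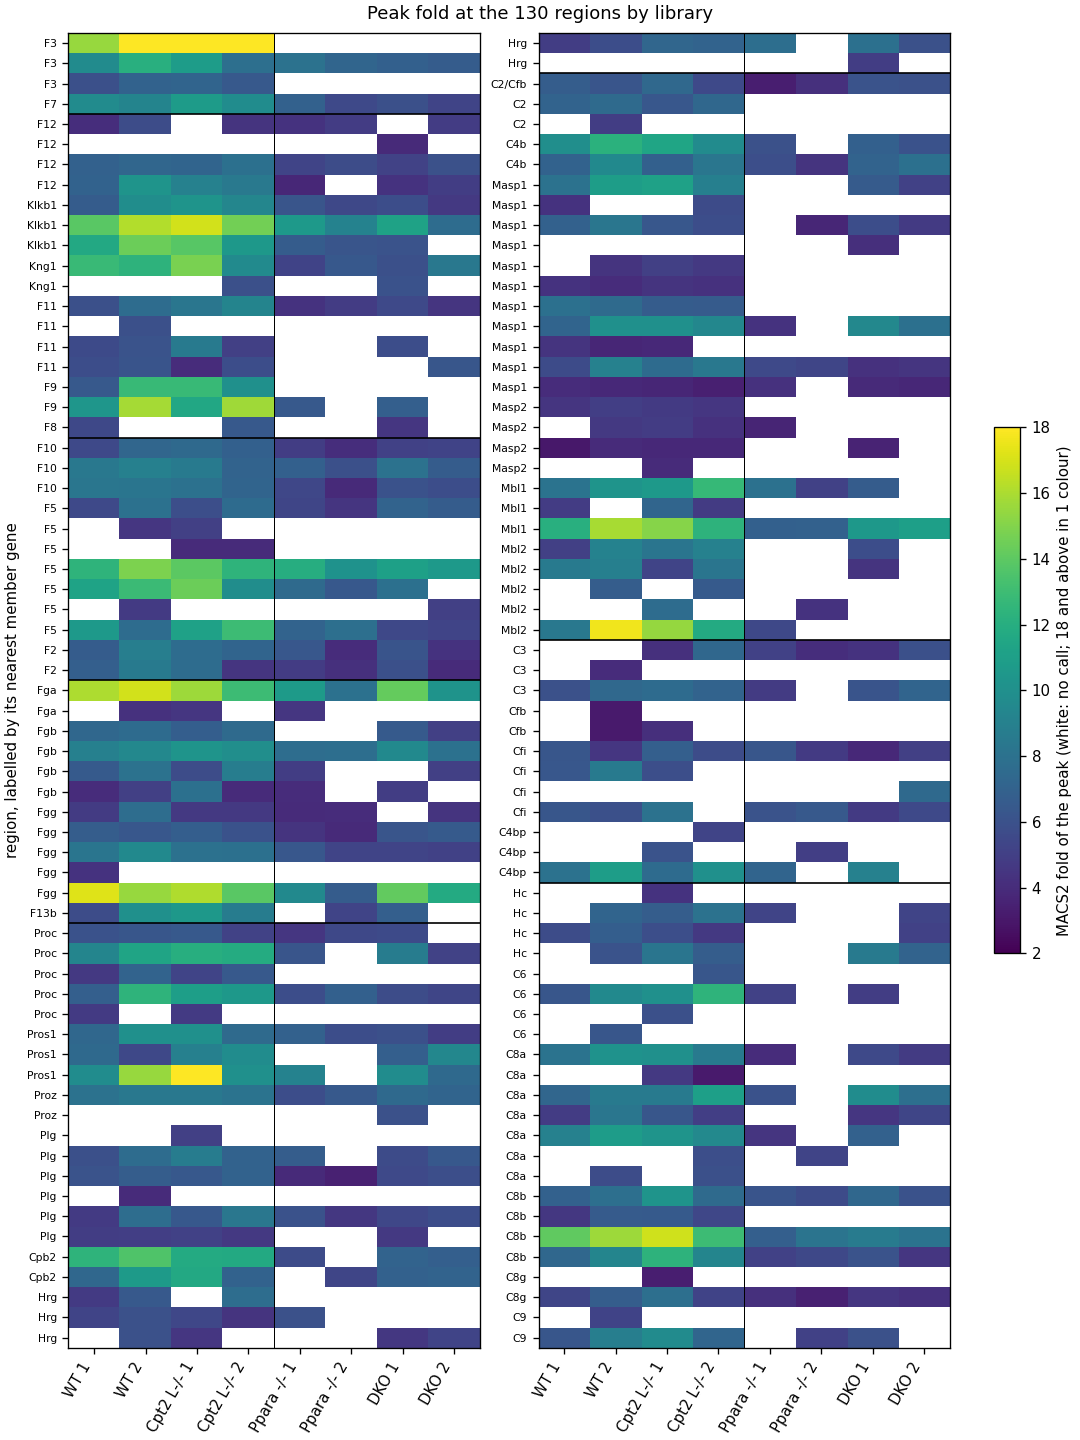
MACS2 fold of the peak at each of the 130 regions (rows, by role and then position, labelled by gene) in each library (columns), on a linear colour scale with 1 colour from 18 up and white for no call; black horizontal lines part the role groups, and the vertical line parts Ppara-intact from Ppara-null libraries. White fields are more frequent on the right of the vertical line, and the top row, at F3, is strong in all 4 Ppara-intact libraries and white in the others.

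The first comparison asked which regions had a call in each of the 4 Ppara-intact libraries and no call in the other 4. There were 9 of 130 such regions (6.92%), against 6.82% of all regions, a share near the background, and 0 of the opposite kind, against 0.0686%. They belonged to F3, with 2, and to F9, Proc, C2, C8b, Masp1, with 2, and Masp2. A two-sided exact permutation test of the calls over the 8 libraries gave these 9 an unadjusted p of 0.0286, the smallest it can give, and a Benjamini-Hochberg adjusted p of 0.415 over all 49587 regions. At an adjusted p under 0.05 no member region was separated, and 9 were at an unadjusted p under 0.05 (6.92%), against 6.89% of all regions. Only full separation of the 4 and 4 libraries can give such an unadjusted p. These are thus the same 9 regions, and the test adds nothing to their count. In equal-number lists 1 of 130 (0.769%) was separated, the F3 region 15994 bp from the gene, against 0.811% of all regions, and 0 in the opposite direction, against 0.512%. Without the first double knockout library the count over full lists was 14 (10.8%), against 9.08% of all regions.

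The groups below are ordered by role and hold 4 to 28 regions each. Over all regions 22.7% were called in all 8 libraries, 6.82% were called only in Ppara-intact ones, and the mean share called was 69.4% with Ppara intact and 38.9% without it. In groups of this size a count of 0 or 1 separated region lies near that background.

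Tissue factor, encoded by F3, starts clotting when blood meets it outside the vessel, and its gene had 3 regions. The one 15994 bp before the gene (chromosome 3, 121707099 to 121707543, mm10) had folds of 15.5 and 18.4 in WT and 18.8 and 23.5 in Cpt2 L-/-, and no call in Ppara -/- or double knockout. Fold here is the authors' value for a peak, its summit pileup over the local background of the same library. Its −log10 p was 75, 122, 115 and 165 in the 4 Ppara-intact libraries, at percentile 86.5 to 98.3 of each list. It was thus among the strong peaks of each list, and also called in all 4 equal-number lists of the Ppara-intact libraries and in no other. The region at the start of F3 (121722876 to 121723905) was called in all 8, with folds of 9.7 and 12.1 in WT, 10.8 and 7.83 in Cpt2 L-/-, 8.06 and 7.22 in Ppara -/-, and 6.88 and 6.67 in double knockout. These folds of the Ppara-null libraries overlapped the lowest Ppara-intact one. The remaining region, 1015 bp after the gene (121736067 to 121736794), had folds of 5.89 to 7.12 in the 4 Ppara-intact libraries and no call in the others or in any equal-number list. F7, the protease that tissue factor activates, had 1 region (chromosome 8, 13025483 to 13026220), with folds of 9.72 and 9.22 in WT, 10.8 and 9.77 in Cpt2 L-/-, 6.94 and 5.56 in Ppara -/-, and 5.91 and 5.29 in double knockout.

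**Figure D4:**
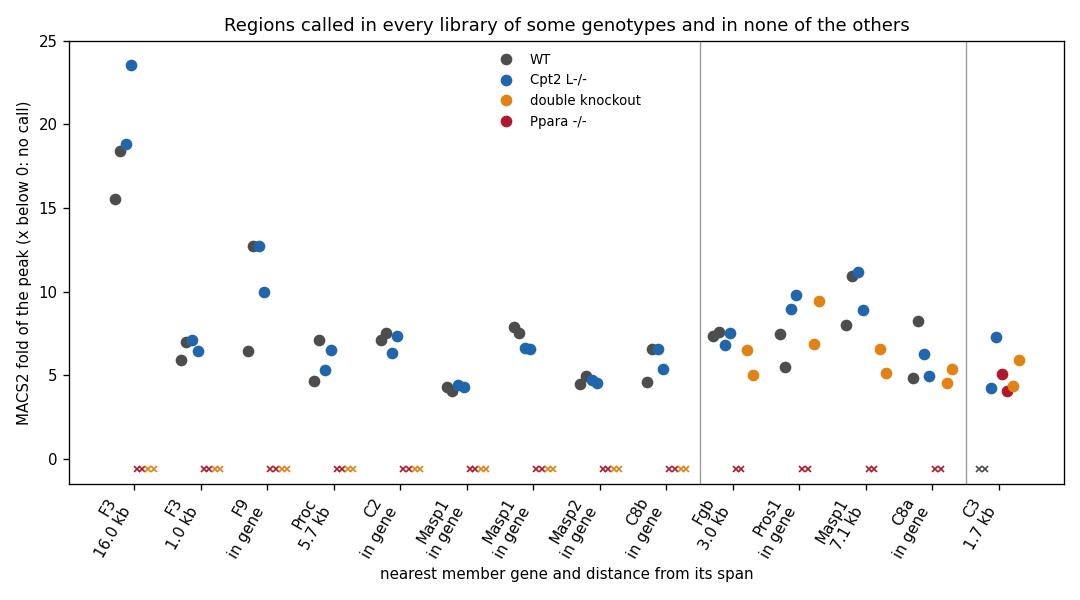
Fold of each called peak (points) at the 9 regions called only in Ppara-intact libraries (left of the first line), the 4 missing in Ppara -/- alone (middle) and the 1 missing in WT alone (right); crosses below 0 mark libraries with no call, and labels give the nearest member and its distance. The points of the F3 region 15994 bp from its gene lie between 15.5 and 23.5, above those of every other region shown.

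Contact and intrinsic factors (F12, Klkb1, Kng1, F11, F9 and F8) had 16 regions, of which 1 was called only in Ppara-intact libraries. That region covers the start of F9 (chromosome X, 59999176 to 59999589), the promoter printed above, with folds of 6.47 and 12.8 in WT and 12.8 and 10 in Cpt2 L-/-. In equal-number lists 1 WT and both Cpt2 L-/- libraries called it. A second F9 region, inside the gene (60014418 to 60014985), had folds of 10.4, 15.9, 11.6 and 15.7 in the Ppara-intact libraries, 6.47 in the first Ppara -/- and 6.87 in the first double knockout library, and no call in the other two. The F9 start was thus without a call in all 4 Ppara-null libraries, and the region inside the gene in 2 of them. Klkb1, which encodes prekallikrein, had the strongest region of this group (chromosome 8, 45281565 to 45282080, inside the gene), called in all 8 with folds of 13.9 and 16.2 in WT, 16.9 and 14.6 in Cpt2 L-/-, 10.6 and 9.08 in Ppara -/-, and 11.2 and 7.64 in double knockout. At one end of Kng1, the kininogen gene (chromosome 16, 23057833 to 23058464), folds were 12.8 and 12.3 in WT, 14.8 and 9.68 in Cpt2 L-/-, 5.21 and 6.39 in Ppara -/-, and 5.9 and 8.39 in double knockout. F8, which in the body is made mainly by endothelial cells, had 1 region, shared with Fundc2 and called in 3 libraries.

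In the common path, F10, F5 and F2 (factor X, factor V and prothrombin) had 12 regions, 8 of them (66.7%) called in all 8 libraries, against 22.7% of all regions, and 0 separated by Ppara status, against 6.82%. All regions of F10 and F2 and 2 of the 7 of F5 lay within 1 kb of a gene end. Over all such gene-end regions, 45.5% were called in all 8 libraries and 4.99% only in Ppara-intact ones. The group was called at 85.4% in Ppara-intact and 75% in Ppara-null libraries, against 69.4% and 38.9% of all regions and 84.1% and 60.7% of gene-end ones. In equal-number lists it was called at 66.7% and 72.9%, against 36.4% and 35.7% of all regions and 56.2% and 56.5% of gene-end ones. The strongest, inside F10 near its start (chromosome 8, 13037552 to 13038034), had folds of 8.43 and 9 in WT, 8.55 and 7.1 in Cpt2 L-/-, 6.89 and 5.88 in Ppara -/-, and 8.06 and 6.66 in double knockout. The region inside F5 (chromosome 1, 164162736 to 164163163) had folds of 12.4 to 14.9 with Ppara intact and 10.1 to 12 without it, at percentile 77.5 to 96 of its lists. Both peaks were also called in all 8 equal-number lists.

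The fibrin group, Fga, Fgb and Fgg for the 3 fibrinogen chains and F13b for the carrier subunit of factor XIII, had 12 regions, with 5 called in all libraries and 0 separated by Ppara status. The fibrinogen genes are neighbours on chromosome 3, so their regions are not independent of each other. At the start of Fga (83025856 to 83026404) folds were 16 and 16.9 in WT, 15.7 and 13 in Cpt2 L-/-, 10.7 and 7.94 in Ppara -/-, and 14.2 and 10.2 in double knockout. Between Fgg and Fga (83020245 to 83020793) folds were 17.2 and 15.5 in WT, 16.1 and 13.9 in Cpt2 L-/-, 9.57 and 6.67 in Ppara -/-, and 14.2 and 11.8 in double knockout. In both regions the lowest value was that of the second Ppara -/- library, and the first double knockout library reached the range of the Ppara-intact ones. A region 2174 bp from Fgb (83039668 to 83040072) had folds of 8.95 to 10.3 with Ppara intact and 7.71 to 9.62 without it, so that the sides overlapped.

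Anticoagulant and fibrinolytic genes (Proc, Pros1, Proz, Plg, Cpb2 and Hrg) had 23 regions, 5 of them called in all libraries and 1 only in Ppara-intact ones. That region lay 5738 bp from Proc, the gene of protein C (chromosome 18, 32145308 to 32145724), with folds of 4.67 and 7.09 in WT and 5.3 and 6.5 in Cpt2 L-/-. At one end of Proc (32139409 to 32139947) folds were 9.27 and 11.3 in WT, 12 and 11.9 in Cpt2 L-/-, 6.22 in the first Ppara -/- library with no call in the second, and 8.69 and 5.14 in double knockout. Plg, which encodes plasminogen, had 6 regions, of which 2 were called in every library.

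Complement genes are given by role. The start of the routes (C1ra, C2, C4b, Masp1, Masp2, Mbl1 and Mbl2) had 28 regions, called at 81.2% in Ppara-intact and 35.7% in Ppara-null libraries, and at 40.2% and 29.5% in equal-number lists. Over all regions these shares were 69.4% and 38.9%, and 36.4% and 35.7%. Of the 28, 4 (14.3%) had calls in all 8 libraries, against 22.7% of all regions. A further 4 (14.3%) had calls in every Ppara-intact but no Ppara-null library, against 6.82% of all regions, and in equal-number lists 0 did. The 4 lay inside Masp1 (chromosome 16, 23498779 to 23499128 and 23506070 to 23506562), a protease of the lectin route, inside Masp2 (chromosome 4, 148601770 to 148602106), which cleaves C4 and C2, and at an end of C2 (chromosome 17, 34881898 to 34882322). Their folds were 4.04 to 4.44, 6.57 to 7.89, 4.45 to 4.97 and 6.35 to 7.54, far below that of the F3 region. The Masp2 region, though inside the annotated span, lies before the start used for its promoter window, at 148602544. Masp1 had 11 regions, the most of any member, and each Ppara-intact library called 9 of them, though not the same 9. Mbl1, a mannose-binding lectin, had the region with the highest median percentile of all 130, at 92.2 (chromosome 14, 41160637 to 41161371, inside the gene). Its folds were 12.1 and 15.9 in WT, 15.1 and 12.4 in Cpt2 L-/-, 6.93 and 6.99 in Ppara -/-, and 10.5 and 11.1 in double knockout, so that all Ppara-null values lay below the Ppara-intact ones. A region 48161 bp from Mbl2 (chromosome 19, 30287848 to 30288276) had folds of 8.44, 17.7, 15.5 and 11.8 in the Ppara-intact libraries, 5.49 in the first Ppara -/- library and no call in the other 3.

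C3 and its partners (C3, Cfb, Cfi and C4bp) had 13 regions, called at 57.7% in Ppara-intact and 44.2% in Ppara-null libraries, against 69.4% and 38.9% of all regions, with 0 separated by Ppara status, against 6.82%. In equal-number lists the group was called at 32.7% and 38.5%, against 36.4% and 35.7% of all regions, so the Ppara-null share was then the higher. At the start of C3 (chromosome 17, 57228015 to 57228532) folds were 5.95 and 7.43 in WT, 7.57 and 7.07 in Cpt2 L-/-, 4.75 in the first Ppara -/- library, and 6.13 and 7.15 in double knockout. A region 1704 bp from the opposite end of C3 (57201876 to 57202263) was called in neither WT library and in all 6 others, with folds of 4.23 and 7.31 in Cpt2 L-/-, 5.07 and 4.07 in Ppara -/-, and 4.36 and 5.92 in double knockout. It was the only member region missing in WT alone (0.769%, against 0.0766% of all regions), and in equal-number lists neither WT, 1 Cpt2 L-/- and all 4 Ppara-null libraries called it. Terminal genes (Hc for C5, C6, C8a, C8b, C8g and C9) had 23 regions, 4 called in all libraries and 1, inside C8b (chromosome 4, 104768236 to 104768545), only in Ppara-intact ones, with folds of 4.62 to 6.58. A stronger region inside C8b (104779442 to 104779859) had folds of 14.1 and 15.7 in WT, 16.8 and 13 in Cpt2 L-/-, 6.82 and 8.18 in Ppara -/-, and 8.63 and 8.06 in double knockout.

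Grouped by system, the 21 coagulation genes had 67 regions, called at 83.6% in Ppara-intact and 60.1% in Ppara-null libraries, and 25 (37.3%) were called in all 8. The 17 complement genes had 63 regions, called at 72.2% and 37.7%, and 9 (14.3%) were called in all 8. Over all regions these values were 69.4%, 38.9% and 22.7%, and over all gene-end regions 84.1%, 60.7% and 45.5%. The 2 systems were not matched for the share of their regions near gene ends. Cut to equal number, the lists gave 57.8% and 57.1% for coagulation, and 36.1% and 32.5% for complement, against 36.4% and 35.7% of all regions. The difference between the systems was not tested. A second list of 38 genes of the same pathways, among them inhibitors, receptors and complement regulators, had 78 regions at 29 genes, called at 75.3% and 44.2%. Of these, 24 (30.8%) were called in all 8 libraries, against 22.7% of all regions. Only in Ppara-intact libraries 5 were called (6.41%), against 6.82% of all regions, and only in Ppara-null ones 0, against 0.0686%. The 5 lay at Colec11, Clu, Lman1, Serping1 and Ggcx. In equal-number lists the 78 regions were called at 44.2% and 42.3%. Of the 78, 4 were then called only with Ppara intact, against 0.811% of all regions, and 0 only without it, against 0.512%. This list was counted only and not tested.

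Loss of Ppara was also read within each Cpt2 background, by regions with a call in 2 libraries of one genotype and 0 of the other. A comparison of 2 libraries with 2 cannot give an exact p below 0.333, so none was tested. For Ppara -/- against WT, 23 of 130 regions (17.7%) were called only in WT, against 13.6% of all regions, and 1 (0.769%) only in Ppara -/-, against 0.46%, the region near C3. In equal-number lists the counts were 9, against 3.44% of all regions, and 3, against 2.38%. Without the first WT library 38 (29.2%) were called only in WT, against 29.8% of all regions, and 1 (0.769%) only in Ppara -/-, against 0.643%. Without the first Ppara -/- library these counts were 43 (33.1%), against 20.9%, and 4 (3.08%), against 2.17%. The member share called only in WT was thus near that of all regions in the former case and above it in the latter. For double knockout against Cpt2 L-/-, 16 regions (12.3%) were called only in Cpt2 L-/-, against 20.4% of all, and 0 only in double knockout, against 0.597%. In equal-number lists 3 were called on each side, against 2.99% and 2.61%. Leaving out any of the 4 libraries of this pair raised the total, to 25 without the first Cpt2 L-/-, 29 without the second, 34 without the first double knockout and 25 without the second. Of these, 23 (17.7%), 29 (22.3%), 32 (24.6%) and 21 (16.2%) were called only in Cpt2 L-/-, against 28.4%, 34.5%, 29.9% and 22.8% of all regions, so the member share lay below the background each time. No region was called in opposite directions in the 2 backgrounds. With 1 region called only in Ppara -/- and 0 only in double knockout, at most 1 could have been. This count thus says nothing about agreement between the backgrounds, and their difference was not tested.

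The next comparison was by Cpt2. For Cpt2 L-/- against WT, which shares its WT libraries with the comparison above, 3 of 130 (2.31%) were called only in Cpt2 L-/-, against 3.63% of all regions, and 0 only in WT, against 0.512%. The 3 were the region near C3 and weak ones inside F5 (chromosome 1, 164158667 to 164158899) and C8a (chromosome 4, 104819060 to 104819356), with folds of 3.96 and 3.98 and of 4.66 and 3.15. The last 2 were called in no library of the other genotypes (1.54% of the 130, against 2.69% of all). Equal-number lists turned the direction, with 3 only in WT and 0 only in Cpt2 L-/-, against 0.815% and 0.918% of all regions, and without the first WT library, with 8 (6.15%) only in WT, against 5.37% of all regions, and 4 (3.08%) only in Cpt2 L-/-, against 5%. Without the second WT library 1 was called only in WT and 7 (5.38%) only in Cpt2 L-/-, against 2.54% and 12% of all regions. Without the first Cpt2 L-/- library the counts were 3 and 7 (5.38%), against 2.78% and 9.83%, and without the second 2 and 10 (7.69%), against 1.21% and 11.7%. The member share called only in Cpt2 L-/- lay below that of all regions in each of these cases.

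For double knockout against Ppara -/-, 6 of 130 (4.62%) were called only in double knockout, against 2.33% of all regions, and 0 only in Ppara -/-, against 1.45%. In equal-number lists 8 (6.15%) and 0 were separated, against 2.03% and 1.84%. Without the second Ppara -/- library, which called few member regions, the counts were 8 (6.15%) only in double knockout and 4 (3.08%) only in Ppara -/-, against 3.81% and 5.41% of all regions. They were 18 and 3 without the first Ppara -/- library, against 6.2% and 4.85%. Without the first double knockout library they were 10 and 4, against 4.85% and 4.6%, and without the second 17 and 2, against 8.48% and 2.13%. Of the 6, 4 were missing in Ppara -/- alone and called in both libraries of each other genotype (3.08% of the 130, against 1.3% of all). They lay inside Pros1, the gene of protein S (chromosome 16, 62872624 to 62873241), inside C8a (chromosome 4, 104824686 to 104825034), 2976 bp from Fgb (chromosome 3, 83038942 to 83039270) and 7052 bp from Masp1 (chromosome 16, 23444187 to 23444733). At Pros1 the folds were 7.46 and 5.49 in WT, 8.97 and 9.79 in Cpt2 L-/-, and 6.87 and 9.42 in double knockout. At Masp1 they were 8.01 and 10.9 in WT, 11.2 and 8.89 in Cpt2 L-/-, and 6.56 and 5.11 in double knockout. Near Fgb they were 7.35 and 7.59 in WT, 6.81 and 7.54 in Cpt2 L-/-, and 6.51 and 5.02 in double knockout. Double knockout folds lay within the range of the Ppara-intact libraries at Pros1 and below it at Masp1 and Fgb. At C8a they were 4.85 and 8.25 in WT, 6.26 and 4.96 in Cpt2 L-/-, and 4.55 and 5.36 in double knockout, of which 1 lay below that range and 1 within it. The remaining 2 of the 6, at Hc and Hrg, were called in 3 and 2 Ppara-intact libraries.

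Where a region was called in every library, the fold itself could be read by genotype. The median fold over the 34 such member regions was 7.19 and 9.02 in WT, 8.48 and 8.2 in Cpt2 L-/-, 6.09 and 5.52 in Ppara -/-, and 6.04 and 5.9 in double knockout. Over all 11258 such regions it was 9.26 and 11.3, 11.3 and 9.86, 6.96 and 6.37, and 7.44 and 6.67. The mean of the 4 Ppara-null folds divided by that of the 4 Ppara-intact ones had a median of 0.689 over the members, against 0.68 over all, and ranged from 0.522 at Kng1 to 0.876 at F5 (chromosome 1, 164151386 to 164152090). In 19 of the 34 (55.9%) every Ppara-null fold lay below every Ppara-intact one, against 60% of all such regions, and in 0 the reverse, against 0.222%. The folds of the members were thus lower in Ppara-null libraries by about as much as those of all regions. Each fold is relative to its own library, so no test was made.

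**Figure D5:**
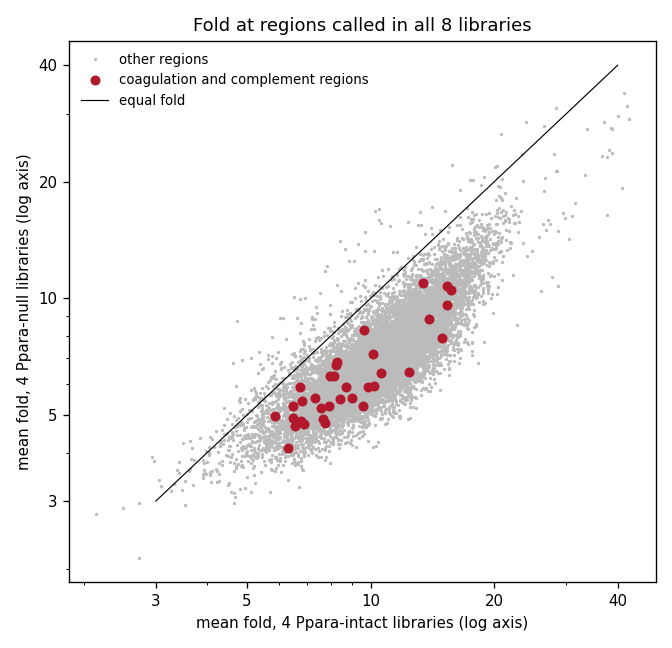
Mean fold in the 4 Ppara-intact libraries (x) against the 4 Ppara-null libraries (y), both on log axes, for each of the 11258 regions called in all 8 libraries; large points are the 34 coagulation and complement regions, and the line marks equal fold. All 34 lie below the line, within the cloud of the other regions.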

How the data were processed

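The 8 libraries were grouped by the genotype in the labels. Reads were aligned with BWA to mm10 and peaks called with MACS2 2.1.0, 1 list per library, per the submitters' processing notes and the peak names; filters and the Tn5 offset are not given in the sources used here. For each peak the authors deposited a fold ratio (pileup over local background) and a −log10 p, read by the narrowPeak column order since these files have no header, and also a table of merged regions, whose first track was used. The lowest −log10 p in a list was 7.115 to 7.823. The files hold no read totals, so depth is unknown and no counting interval is given.

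A peak sharing 1 bp or more with a region made it called in that library, and its value is that of the overlapping peak with the highest −log10 p. Percentiles are ranks of −log10 p within a list. Genes came from RefSeq (GRCm38.p6, 21900 coding genes), without strand or exons, and promoter windows with strand from its promoter table. The per-region test was a two-sided exact permutation test over the 8 libraries with Benjamini-Hochberg adjustment over 49587 regions, checked on simulated calls. Alternatives were equal-number lists, a −log10 p minimum of 15, a cover of 50% of the region by the peak, a limit of 10 kb, a block on replicate numbers, and leave-one-out fits. Regions given in full were those separated by Ppara status, those called in 1 genotype alone or missing in 1 alone, and the strongest of each role group by median percentile; other positions, including those at Kng1, Mbl2, F5, F3, F7, F9, Fgg, Fgb, Proc and C3 beyond these, and the 4 printed promoters, were chosen after their values were seen. The genes and lists were chosen with earlier results of these data known. A further marker list is not reported here. Computation used Python 3.11.15, NumPy 2.4.6, pandas 2.3.3 and matplotlib 3.10.9.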

Additional observations from a re-analysis of the deposited data

How the results depend on the processing

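The count of 9 regions separated by Ppara status was 1 in equal-number lists, against 0.811% of all regions, 12 with 50% cover, against 8.71%, 8 within 10 kb, and 9 to 14 when 1 library was left out, against 7.22% to 11.8%. Of the 9 regions, 8 were no longer separated in equal-number lists. The total for Ppara -/- against WT, 24, was 12 in equal-number lists and 28 to 47 with 1 library left out; that for double knockout against Cpt2 L-/-, 16, was 6 and 25 to 34. For Cpt2 L-/- against WT the total of 3 turned direction in equal-number lists, again with 3 regions, and without the first WT library, with 12; it was 8 to 12 with 1 library left out. The total of 6 for double knockout against Ppara -/- was 12 to 21 with 1 library left out. Leaving 1 library out asks for separation of fewer libraries and can only raise a count, by construction. The cause of the turned direction for Cpt2 L-/- against WT, and of the changes in equal-number lists, was not tested. The count of member regions with an adjusted p under 0.05 was 0 in each setting, but with so few libraries the adjusted p could pass only if most regions tied at the smallest p, so this says nothing about stability.

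With the replicate number as a block, the separated regions are the same 9 by construction, the smallest exact permutation p is 0.125, and 0 regions had an adjusted p under 0.05, which this p cannot reach. Differences between replicates 1 and 2 correlated at -0.0314 to 0.0255 between genotypes over all regions. These values cannot tell whether libraries with the same replicate number were prepared together, which was not tested.

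The lists carry no read depth, and a missing call says only that no peak passed the authors' threshold in that library.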
